A study of Homo sapiens with 9 samples.

Results

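The edited form of the microRNA miR-376a* was set against a control duplex in cells of U87, a long-established line from a human glioma. The comparison was defined by the sample titles and used 6 of the 9 Affymetrix expression arrays of the series, 3 for cells transfected with miR-376a*G and 3 for cells transfected with the control. All cells received 50 nM of duplex with a lipid reagent and were harvested 72 h later, so transfection and time were shared by both groups. The other 3 arrays, from cells given the unedited form miR-376a*A, entered the estimate of the spread but not the differences. They also counted in the choice of each gene's probe set and of the genes tested. Both duplexes were added from outside to a single cell line, and the labels call the replicates biological without naming separate cultures or days, so the p-values measure the spread between these arrays.

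MicroRNAs are short RNAs that guide Argonaute proteins to messenger RNAs, mostly by pairing of the seed near their 5′ end, and so lower the stability or translation of those messages. ADAR enzymes convert some adenosines in microRNA precursors to inosine, which is read as guanosine, and in miR-376a* the edited base lies inside the seed. The edited and unedited forms can therefore pair with different messages. The label miR-376a* is the older name of the 5′ strand. Its genome-encoded, unedited sequence is shown with that of the opposite strand, since the seed is the part that editing alters. Both are RefSeq entries of build GRCh38.p14 at the MIR376A1 locus, a non-coding hairpin gene on the plus strand, and capitals mark the seed, bases 2 to 8. The 5′ strand lies at chr14:101040788-101040809 and the 3′ strand at chr14:101040825-101040845.

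hsa-miR-376a-5p: gUAGAUUCuccuucuaugagua

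hsa-miR-376a-3p: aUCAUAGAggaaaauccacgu

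The arrays held 1 linear signal per probe set, scaled by the authors. Signals were compared as log2(signal + 1), each gene was read from its brightest probe set, and a gene was called when its adjusted p (limma, Benjamini-Hochberg over 12587 tested genes) was under 0.05. Differences are given as log2 of miR-376a*G minus control, on a scale that understates changes of dim genes. Median signal was 21.7 to 24.6 on the miR-376a*G arrays and 18.5 to 22.0 on the control arrays. The array labelled control replicate 1 stood apart from its group. Pearson's r was computed over the tested genes, and genes do not count as independent replicates. It was 0.935 and 0.934 between this array and the other controls, but 0.990 and 0.982 between it and miR-376a*A replicates 2 and 3. Against the miR-376a*G arrays it was 0.877 to 0.881. In the other direction, miR-376a*A replicate 1 correlated at 0.987 and 0.990 with control replicates 2 and 3. Each gene is therefore described with control replicates 2 and 3 alone as well. Control probe sets added to the samples also moved with the groups. Mean log2 signal of the hybridisation controls was 7.12 to 7.29 on miR-376a*G arrays and 7.51 to 7.70 on control arrays, and poly-A controls 7.38 to 7.56 and 7.76 to 7.85. GAPDH signal at the 3′ end over that at the 5′ end, as a log2 ratio, was -0.19 to -0.14 with miR-376a*G and -0.12 to -0.08 with control. The same ratio for ACTB overlapped, at -0.18 to -0.17 and -0.21 to -0.13. Their part in the results was not tested, but the counts are given again after scaling to these controls.

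Of 10 genes usual in mesenchymal glioma lines 9 were bright. S100A6 lay at 2990.2 to 3622 over the 6 arrays, vimentin (VIM) at 2107 to 2500.4 and CD44 at 1475 to 1946, while NES was dim at 33.0 to 59.7 and CHI3L1 differed between groups, as given further on. The defining astrocyte gene GFAP lay at 1.48 to 5.66 and S100B at 0.82 to 1.30, near the bottom of the scale. Defining markers of endothelium (VWF, 2.13 to 3.94), leukocytes (PTPRC, 0.79 to 8.46) and epithelium (EPCAM, 9.67 to 25.8) were also low. Other endothelial markers were not as low, with PECAM1 at 38.7 to 135 and KDR at 21.9 to 103. In RNA from whole cultures, fewer cells of a kind and less RNA per cell cannot be told apart.

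Of the 12587 tested genes, 4205 were called, with 2268 higher and 1937 lower in cells given miR-376a*G, which is 33.4% of the genes, 18.0% higher and 15.4% lower. The split depended on the scaling: 53.9% of all calls and 51.0% of bright calls were higher as deposited, against 29.2% and 26.9% with arrays centred on their medians, 85.4% and 82.8% with hybridisation controls set equal, and 80.7% and 77.3% with poly-A controls set equal. Genes with a mean signal of 100 or more in at least 1 of the 2 groups are called bright here. Among 8149 bright genes 3334 were called (40.9%), of which 1700 were higher (20.9%) and 1634 lower (20.1%). Bright genes that rose by 1 or more on the log2 scale numbered 553, and those that fell by as much numbered 658. A called gene was said to hold when every miR-376a*G array lay beyond both control replicates 2 and 3 and when the fit without control replicate 1 called it in the same direction. By that measure 2937 of the 3334 bright calls held, 1457 of them higher and 1480 lower. The other 397 lost their call without control replicate 1, and 0 turned to the opposite direction. A further 457 bright genes were called only without that array, 226 higher and 231 lower, so that 3394 (41.6%) were called there. Without both arrays that stood apart 5320 bright genes were called, which included 3331 of the 3334 in the same direction.

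**Figure D1:**
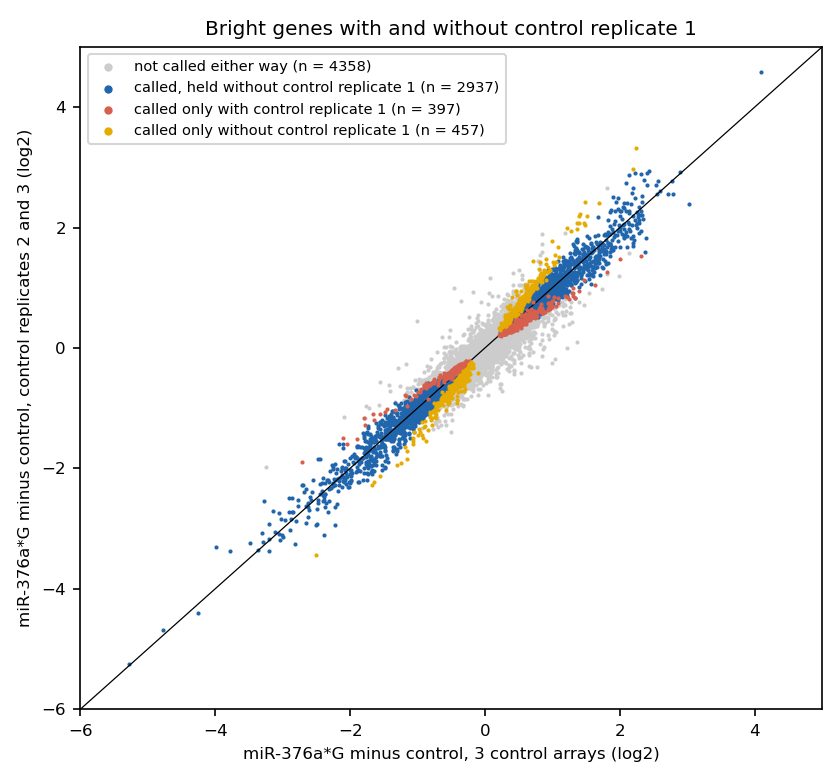
Difference between miR-376a*G and control for each of the 8149 bright genes, in log2 units, with all 3 control arrays (horizontal) and with control replicates 2 and 3 only (vertical); the line marks equal values. Blue points are the 2937 genes called both ways, red points the 397 called only with control replicate 1, yellow points the 457 called only without it, and grey points genes called neither way.

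Many genes were measured by more than 1 bright probe set. For 1380 of the bright called genes at least 1 other bright probe set was present, and for 1233 of these every such probe set differed in the same direction as the one tested.

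The largest increase on this scale was that of CSF3, the granulocyte colony-stimulating factor. Its signals were 1686, 1706 and 2119 with miR-376a*G replicates 1 to 3 and 211, 82.3 and 68.1 with control replicates 1 to 3. No array of one group lay within the other, and the difference was 4.10 (SE 0.50, adjusted p = 3.9e-04), or 4.59 against control replicates 2 and 3. The chemokine CXCL1, which draws neutrophils, was at 472, 409 and 536 against 79.3, 67.6 and 92.7, a rise of 2.55 (SE 0.16, adjusted p = 1.6e-05). FGF1, a ligand of the fibroblast growth factor receptors, was at 232, 227 and 223 against 84.7, 33.3 and 26.2. Its control replicate 1 lay highest of the 3 controls, so its rise of 2.41 (adjusted p = 0.0028) was 2.90 without that array.

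Among the largest increases were genes that act in mitosis, which had little spread among the miR-376a*G arrays. Genes of this class were not counted as a list. CDC20, which activates the anaphase-promoting complex, was at 830.3, 967 and 919.9 with miR-376a*G and 111, 163 and 142 with control (difference 2.71, SE 0.19, adjusted p = 2.1e-05). CCNA2, encoding cyclin A2, was at 1013, 1038 and 980.1 and 232, 146 and 146 (difference 2.56, adjusted p = 1.2e-04), and its other bright probe set differed by 3.31. For both genes every miR-376a*G array lay far above the highest control array. The mitotic kinase gene PLK1 was at 384, 396 and 458 against 69.8, 74.7 and 59.4, a rise of 2.59, and the kinetochore gene CENPM at 539, 650.5 and 587 against 60.9, 119 and 82.5, a rise of 2.79. NCAPH, a condensin subunit, was at 281, 271 and 291 against 13.3, 58.1 and 47.8, and OIP5, which helps to load the centromeric histone, at 389, 393 and 367 against 23.9, 125 and 127. Control replicate 1 was the lowest control for these last 2 genes, and their rises of 3.03 and 2.38 were 2.39 and 1.59 without it (adjusted p = 0.0033 and 0.0406). The same held for DDIAS, which protects dividing cells from apoptosis after DNA damage, at 117, 143 and 141 against 10.6, 37.6 and 36.1, with a rise of 2.39 that was 1.83 without control replicate 1.

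Both transcription factors among the largest increases act on cell-cycle genes. E2F2 was at 273, 258 and 283 with miR-376a*G and 39.1, 40.4 and 37.2 with control (difference 2.77, SE 0.14, adjusted p = 6.7e-06), and its 3 controls lay close together. MYBL2, encoding B-Myb, was at 469.6, 519.6 and 618 against 148, 96.5 and 68.5, a rise of 2.41, with control replicate 1 the highest control. Outside the cell cycle, the tight junction gene CLDN1 was at 193, 193 and 198 against 25.7, 23.3 and 26.5, a rise of 2.90. TRPV2, encoding a calcium-permeable cation channel, was at 107, 97.8 and 111 against 21.8, 14.9 and 15.9, a rise of 2.54. The antisense transcript PAX8-AS1 was at 301, 251 and 291 against 104, 33.1 and 38.5, a rise of 2.43 that was 2.94 without its highest control, replicate 1. All 15 genes with the largest increases, chosen without overlap with the 3 controls, were still called without control replicate 1.

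The brightest gene that rose by 1 or more, by its mean over the 6 arrays, was RRM2, a subunit of ribonucleotide reductase, which makes the deoxynucleotides for DNA. It was at 1902, 2265 and 2009 against 740.4, 742 and 703 (difference 1.49, SE 0.08, adjusted p = 1.0e-05). UBE2C and UBE2S, the ubiquitin-conjugating enzymes that serve the anaphase-promoting complex, were at 1600.4, 1672 and 1543 and at 1425, 1524 and 1432 with miR-376a*G, against 677, 716 and 736 and 603, 656 and 609 with control. These rises of 1.18 and 1.23 had standard errors of 0.10 and 0.09. ANAPC13, a subunit of that complex, was at 1722, 1944 and 1646 against 1050.2, 670.3 and 666, a rise of 1.18 (1.40 without control replicate 1). CDKN3, a phosphatase that acts on cyclin-dependent kinases, rose by 1.59 from 618, 555 and 514 to 1635, 1832 and 1605, and CKS1B, a small partner of those kinases, rose by 1.10 from 534, 683 and 717 to 1302, 1539 and 1280.2. Spread among the controls was larger for the other two of these 8 genes. IL1B, the inflammatory cytokine interleukin 1β, was at 1967, 2280.1 and 2035 against 1047, 384 and 395, a rise of 1.95 (adjusted p = 0.0192; 2.42 without control replicate 1). LSM3, part of the ring that binds U6 RNA in splicing, was at 1376, 1529.7 and 1442 against 903, 333 and 312, a rise of 1.67 (adjusted p = 0.0350; 2.17 without control replicate 1).

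Several of the genes with the largest decreases ended near the bottom of the scale, where the pseudocount sets the size. PPL, encoding the cytoskeletal linker periplakin, was at 2.79, 2.79 and 2.21 with miR-376a*G and 143, 126 and 147 with control. DEPP1, known as a gene that fasting and progesterone induce, was at 8.65, 17.1 and 9.98 against 383, 367 and 279.6. The controls agreed for both genes, and the differences were -5.28 and -4.78 (SE 0.18 and 0.27); with a pseudocount of 16 they were -3.05 and -3.69, while the rise of CSF3 was 3.90. The divergent transcript EFCAB13-DT was at 23.2, 20.7 and 16.1 against 327, 423 and 453 (difference -4.26). TMEM119 was at 8.77, 7.77 and 10.1 against 151, 87.8 and 96.8 (difference -3.48), and ZP1, a gene of the egg coat, at 22.7, 28.1 and 23.9 against 354, 214 and 178 (difference -3.21). For the sialyltransferase gene ST8SIA5 and for APCDD1L, control replicate 1 lay well above the other controls, and the differences of -3.99 and -3.78 were -3.31 and -3.38 without it.

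The decreases of NRN1, CPA4, ACVR1, ITGB3 and TIMP3 left a clear signal on the miR-376a*G arrays. Their size therefore depended less on the pseudocount. NRN1, encoding neuritin, a membrane-anchored neurite growth factor, was at 119.6, 109 and 122 with miR-376a*G and 1268, 1094 and 1308 with control (difference -3.37, SE 0.11, adjusted p = 1.7e-06). With a pseudocount of 16 the difference was -3.22. The carboxypeptidase gene CPA4 was at 76.2, 73.4 and 92.7 against 1096, 683 and 689.8 (difference -3.30, -3.09 with a pseudocount of 16). ACVR1, a type I receptor for activins and bone morphogenetic proteins, was at 64.7, 50.2 and 57.0 against 558, 521 and 522, with 3 controls in close agreement (difference -3.20, SE 0.13, adjusted p = 1.7e-06). The β3 integrin gene ITGB3 was at 58.7, 56.4 and 57.7 against 625, 522 and 569 (difference -3.29), and its 4 other bright probe sets differed by -2.95 to -1.53. CSGALNACT1, which starts chondroitin sulfate chains, was at 31.1, 19.2 and 24.7 against 246, 209 and 212 (difference -3.12). TIMP3, an inhibitor of metalloproteases held in the matrix, was at 54.6, 50.4 and 46.6 against 1395, 317 and 279. Its control replicate 1 lay far above both other controls, and the difference of -3.28 (adjusted p = 0.0104) was -2.54 without it (adjusted p = 0.0200). Both MIR210HG, the host transcript of a hypoxia-induced microRNA, and ANGPTL4, an inhibitor of lipoprotein lipase, fell too. They were at 31.1, 55.2 and 40.9 against 314, 460.5 and 415 and at 14.0, 18.9 and 9.92 against 241, 94.0 and 97.8 (differences -3.21 and -3.15). A second bright probe set of ANGPTL4 differed by -4.80. ANGPTL4 and CSGALNACT1 were dim with miR-376a*G, and with a pseudocount of 16 they differed by -2.30 and -2.55. The 15 genes with the largest decreases, chosen without overlap with the 3 controls, were all still called without control replicate 1.

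**Figure D2:**
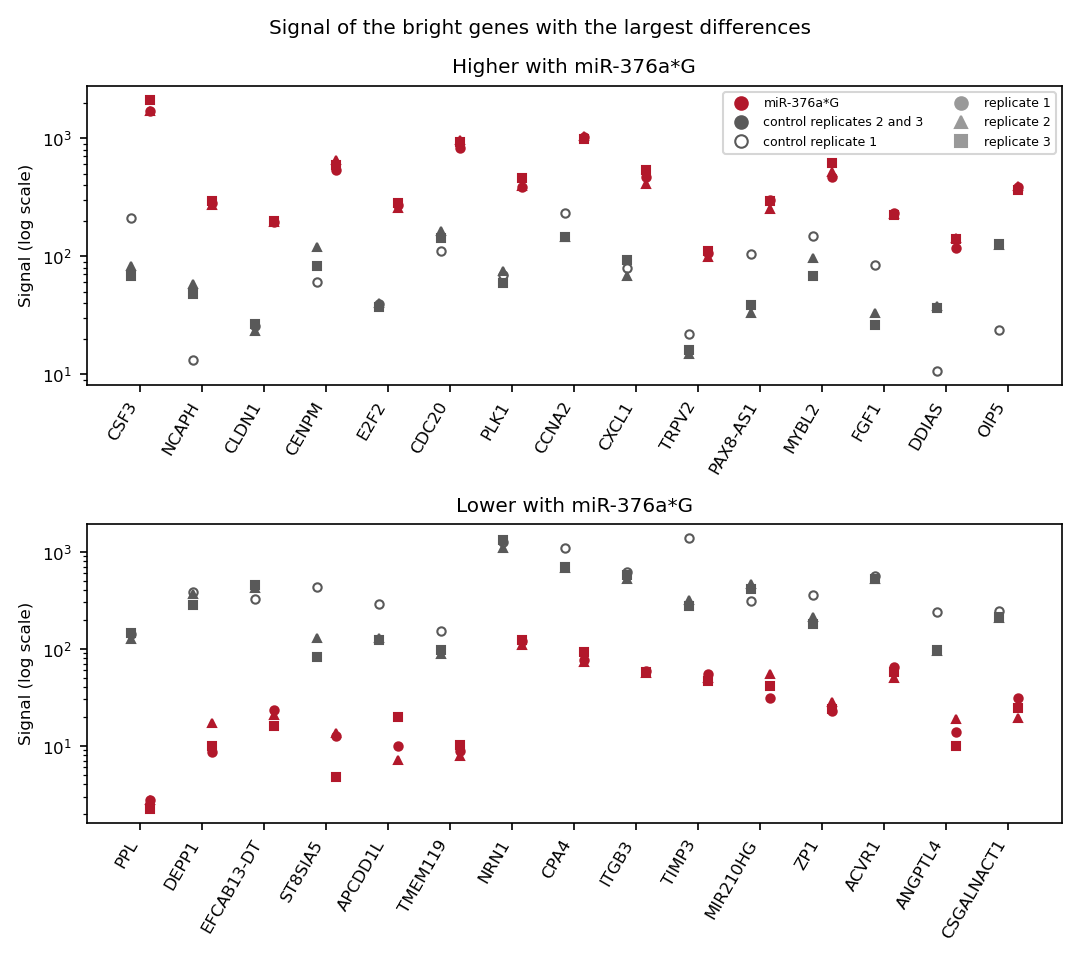
Signal on each array, on a log scale, for the 15 bright genes with the largest increases (top) and the 15 with the largest decreases (bottom) by the log2 difference. Red symbols are miR-376a*G arrays, filled grey symbols control replicates 2 and 3, and the open circle control replicate 1. The 30 genes were chosen among those whose 3 miR-376a*G arrays lie beyond the 3 controls.

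Among the brightest genes that fell by 1 or more, fibronectin (FN1), a major matrix protein, was at 999.7, 1173 and 1150.2 against 3233, 2397 and 2712 (difference -1.32, SE 0.16, adjusted p = 3.7e-04). Its 6 other bright probe sets differed by -3.23 to -1.18. CAV1, the coat protein of caveolae, was at 859, 888 and 809.9 against 2853, 2396 and 2580.3 (difference -1.61). The related mitophagy receptors BNIP3 and BNIP3L, both known to respond to low oxygen, fell from 2217, 1913 and 2181 to 844, 1028 and 831 and from 1871, 1762 and 2010.1 to 744, 775 and 709, with differences of -1.23 and -1.34. CA12, a membrane carbonic anhydrase, was at 521, 574 and 585 against 2208, 1594 and 1676 (difference -1.69), and its 4 other bright probe sets differed by -2.23 to -1.56. GBE1, the glycogen branching enzyme, was at 813, 857 and 810.3 against 1758, 1602 and 1925 (difference -1.09). GLRX, the redox enzyme glutaredoxin, and IDS, a lysosomal sulfatase that breaks down heparan and dermatan sulfate, differed by -1.24 and -1.40, from controls of 1896, 1868 and 2104 and 1635, 1709 and 1807 to 809, 865 and 801 and 668, 598 and 682. The 16 brightest genes of this kind, 8 in each direction and also chosen without overlap, were all still called without control replicate 1.

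For some bright genes the array labelled control replicate 1 set the size or the call. CENPU, a kinetochore gene, was at 807, 992 and 837 with miR-376a*G and 57.3, 288 and 319 with control; its difference of 2.32 (adjusted p = 0.0469) became 1.52 (adjusted p = 0.1002) without that array. The methyltransferase gene EEF1AKMT2 (56.3, 186 and 189 in controls, 387, 396 and 389 with miR-376a*G) and RASSF3 (13.8, 46.3 and 42.0, 118, 103 and 104) also lost their calls, with differences of 1.63 and 1.81 that became 1.05 and 1.27 (adjusted p = 0.0862 and 0.0809). In these 3 genes control replicate 1 lay far below both other controls. Among the decreases it was the highest control for DCC and COL7A1. The netrin receptor gene DCC was at 13.8, 9.55 and 14.6 against 275, 53.2 and 45.9, and its difference of -2.72 became -1.90 (adjusted p = 0.0523). The anchoring fibril collagen COL7A1 was at 54.6, 72.4 and 76.9 against 565, 152 and 153, and its difference of -1.80 became -1.17 (adjusted p = 0.1059). COL13A1 and NTNG1, a transmembrane collagen and a netrin-like axon guidance protein, shrank from -2.47 and -2.45 to -1.85 and -1.84 but were still called (adjusted p = 0.0464 and 0.0287). The fit without control replicate 1 kept miR-376a*A replicate 1 in the estimate of the spread. Without both arrays that stood apart, CENPU, EEF1AKMT2, RASSF3, DCC and COL7A1 were called at these reduced differences (limma adjusted p = 1.1e-06, 2.6e-06, 6.8e-05, 9.0e-05 and 3.9e-05). In each of them every miR-376a*G array lay beyond control replicates 2 and 3.

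Some large contrasts with control replicates 2 and 3 were not called when control replicate 1 was included. The heparin-binding growth factor pleiotrophin (PTN) was at 1349, 1596 and 1409.6 with miR-376a*G and 1392, 134 and 153 with control, so that control replicate 1 lay with the miR-376a*G arrays. Its difference of 2.24 (adjusted p = 0.1304) was 3.33 without that array (adjusted p = 0.0173). GLO1, which detoxifies methylglyoxal, was at 1021, 1165 and 1028 against 687, 133 and 137 (difference 2.20, and 2.98 with an adjusted p = 0.0094). The same pattern was seen for MARCHF4, a ubiquitin ligase, and WDFY1, an endosomal adaptor. It was also seen for ATL3, which shapes ER tubules, and RGMB, a co-receptor for bone morphogenetic proteins. Without control replicate 1 they differed by 2.42, 2.40, 2.23 and 2.20. In the opposite direction, TWSG1, a secreted modulator of bone morphogenetic proteins, was at 59.9, 58.5 and 57.2 with miR-376a*G and 89.7, 631 and 660.4 with control. Its difference of -2.50 (adjusted p = 0.0652) was -3.44 (adjusted p = 0.0093) without control replicate 1. CFI, the complement protease factor I, was at 153, 137 and 148 against 149.7, 570.3 and 561 (difference -1.31, and -1.95 with an adjusted p = 0.0181). EVI5, the AMP-activated kinase subunit PRKAA2, the xylosyltransferase GXYLT2 and TMTC3 were called in the same way, at -2.27, -2.22, -2.12 and -1.91. These 12 genes were called without control replicate 1 and not with it.

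Other single arrays decided the calls of 21 of the genes named in the text, whose adjusted p was 0.053 to 0.140 without the array in question. IL1B, LSM3 and NR1D2 were not called when any one of the 5 arrays other than control replicate 1 was left out, and the same was true of EXT2 and COL7A1. For OIP5 and COL13A1, and for CENPU, EEF1AKMT2, RASSF3 and DCC, leaving out any miR-376a*G array ended the call, and for CENPU leaving out control replicate 2 did so as well. JAG1 was not called without miR-376a*G replicate 1 or 2, TTK without replicate 1, GJA1 without replicate 3, and KDR without miR-376a*G replicate 1 or control replicate 2 or 3. ATG7, ANXA1, DNAJB4, HSPB8, PSMB9 and PSMC4 also lost their calls without at least 1 of these arrays.

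Genes reported in earlier work as targets of either form were looked up whatever their level. Of the 4 genes listed for each form, 3 had a probe set of 1 gene and were tested. Of the 3 tested genes reported for the edited form, 0 were called here by limma, with 1 at an unadjusted p under 0.05, and 0 without both arrays that stood apart, but 1 with hybridisation controls or poly-A controls set equal and 1 with array weights. PRPS1, which makes the sugar phosphate that starts purine synthesis, was at 514, 547 and 454 with miR-376a*G and 343, 544 and 557 with control. The groups overlapped, with a difference of 0.10 (SE 0.25, adjusted p = 0.7897) that was -0.13 without control replicate 1. The sorting nexin SNX19 was at 125, 124 and 121 against 102, 109 and 96.9 (difference 0.26, SE 0.12, adjusted p = 0.1115), and its miR-376a*G arrays were all above the controls. It was called higher with hybridisation controls set equal (0.66, adjusted p = 0.0064) and with poly-A controls set equal (0.56, adjusted p = 0.0097). The zinc finger gene ZNF513 was dim, at 30.4, 21.7 and 25.3 against 31.6, 33.7 and 38.8, with every miR-376a*G array below every control (difference -0.42, SE 0.23, adjusted p = 0.1836). Of the 3 tested genes reported for the unedited form, the splicing factor SRSF11 was lower in cells given the edited form, at 742, 661 and 674 against 1041, 1062 and 1006 (difference -0.58, SE 0.08, adjusted p = 9.3e-04). With hybridisation controls set equal it was not called (-0.18, adjusted p = 0.2191), and with poly-A controls set equal it was at -0.28 (adjusted p = 0.0337). Its 2 other bright probe sets differed by -0.78 and -0.77. TTK, a spindle checkpoint kinase, was higher, at 205, 189 and 194 against 33.6, 81.2 and 71.9 (difference 1.74, adjusted p = 0.0157, or 1.35 without control replicate 1). The small GTPase gene RAP2A was at 899, 888 and 863 against 353, 702 and 784, with control replicate 1 the lowest array, and was not called (difference 0.61, adjusted p = 0.1935). Microarray signal measures messenger RNA only, and regulation of protein output was not measured.

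Further gene groups were described from lists written from general knowledge, with 682 entries in 33 lists, of which 563 were tested. The share of all tested genes called, 18.0% higher and 15.4% lower, and their median difference of 0.12 serve as the background for each list. Some lists turn on genes also given above, and all were written with earlier results of these arrays known. The called members named in the following paragraphs held against control replicates 2 and 3 unless stated. The median of all tested genes was -0.12 after centring arrays on their medians, 0.07 after quantile normalization, 0.51 with hybridisation controls set equal and 0.41 with poly-A controls set equal, so small list medians change sign with the scaling. The first of these scalings (centred arrays) moved the median difference by -0.23, while setting hybridisation controls equal (hybridisation scaling) raised the median difference by 0.40 and poly-A scaling by 0.30. Members that moved by little are therefore called or not by the scaling, and counts of higher and lower members are given under centring and hybridisation scaling too. Over all tested genes 8.48% were called higher and 20.6% lower with centred arrays, 44.1% and 7.57% with hybridisation scaling, and 31.2% and 25.0% without both arrays that stood apart.

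Genes that build ribosomes were among the lists with the most calls upward. Of 21 tested ribosome biogenesis genes 14 rose and 0 fell, with a median of 0.76 (18 and 0 without both arrays, 10 and 0 with centred arrays, 21 and 0 with hybridisation scaling). RRP9, which helps to process the small-subunit RNA, was at 183, 176 and 188 with miR-376a*G and 76.9, 51.1 and 56.4 with control (difference 1.57, SE 0.17, adjusted p = 2.1e-04). POLR1C, a subunit shared by RNA polymerases I and III, was at 298, 284 and 279.7 against 133, 130.4 and 147 (difference 1.07). The ribosomal RNA methyltransferase NOP2 was at 304, 307 and 292 against 138, 150.5 and 148 (difference 1.04), and GAR1, of the pseudouridylation complex, at 524, 619 and 519.7 against 251, 281 and 297 (difference 1.00). In all 4 the groups were clear of each other. For cytosolic ribosomal protein genes the result depended on the scaling. Of 20 tested, 0 were called by limma as deposited (1 at an unadjusted p under 0.05) and 1 without both arrays. With hybridisation scaling 19 rose, with poly-A scaling 18, with quantile normalization 4 and with array weights 5 were called, and with centred arrays 1 fell. Their median was 0.07, and 0.47 and 0.38 under the first 2 of these scalings, against 0.51 and 0.41 for all tested genes. RPS3, the member with the smallest p, was at 2114, 2418 and 2074 against 2029, 1636 and 1843 (difference 0.26, adjusted p = 0.0934). RPL8, RPL11 and RPL22, next by p among bright members, differed by 0.17, 0.18 and 0.16. Transcripts of this family have many near-identical pseudogenes, and their probe sets can detect more than 1 copy.

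Nucleotide synthesis genes were also mostly higher. Of 24 tested genes 15 rose and 1 fell, with a median of 0.65 (19 and 1 without both arrays, 8 and 1 with centred arrays, 21 and 1 with hybridisation scaling). ATIC and GMPS, which complete inosine and guanosine monophosphate, were at 1066, 1093 and 1007 and 909.7, 1024 and 927 with miR-376a*G against 393, 487 and 547 and 410.2, 492 and 515 with control. They differed by 1.16 and 1.02 (SE 0.15 and 0.13), with no overlap between groups. The thymidine kinase gene TK1 was at 569, 727 and 634 against 319, 249.7 and 234 (difference 1.27, adjusted p = 5.2e-04). SHMT2, which feeds one-carbon units into this synthesis, was at 989, 1141 and 1041 against 636, 628 and 589 (difference 0.77, adjusted p = 2.9e-04). The member that fell was the dim adenylosuccinate synthase gene ADSS1 (-1.84).

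Calls among genes for charging transfer RNA and for folding new proteins depended on the scaling. Of 17 tested tRNA synthetase genes 8 rose and 1 fell (median 0.40; 10 and 1 without both arrays, 2 and 1 with centred arrays, 13 and 0 with hybridisation scaling). The alanyl enzyme AARS1 was at 595, 626 and 677 against 301, 314 and 297 (difference 1.05, SE 0.13, adjusted p = 4.3e-04), and the threonyl, histidyl and seryl enzymes TARS1, HARS1 and SARS1 rose by 0.54, 0.45 and 0.46. With centred arrays these 3 were not called (adjusted p = 0.1314, 0.2186 and 0.2040). The glycyl enzyme GARS1 was the member that fell (-0.34; 0.06 after scaling to the hybridisation controls). Among 21 chaperones 8 rose and 2 fell (median 0.29; 11 and 2 without both arrays, 0 and 3 with centred arrays, 17 and 0 with hybridisation scaling). The subunits CCT2, CCT7 and CCT8 of the chaperonin that folds actin and tubulin rose by 0.64, 0.62 and 0.54; CCT8, for example, was at 1778, 1982 and 1729 against 1225, 1196 and 1339. DNAJA1, a partner of Hsp70, rose by 0.32. With centred arrays these 4 were not called (adjusted p = 0.1783, 0.1294, 0.0981 and 0.5583), and without miR-376a*G replicate 2 only 5 chaperones were called in all. The members that fell were the small heat shock protein gene HSPB8 (-0.41) and DNAJB4 (-0.97), neither called with hybridisation scaling (adjusted p = 0.9532 and 0.0869). Among 27 proteasome subunits 5 rose and 2 fell, shares near or below those of all genes (6 and 2 without both arrays, 0 and 2 with centred arrays, 24 and 0 with hybridisation scaling), and the median of 0.17 was -0.06 with arrays centred on their medians. PSMD1 rose by 0.45, PSMB2 by 0.34 and PSMB5 by 0.36, while the fallers were PSMC4 (-0.38; 0.02 after scaling to the hybridisation controls) and the immunoproteasome subunit PSMB9 (-0.47). The 3 risers named were not called with centred arrays (adjusted p = 0.2878, 0.4692 and 0.4914), PSMB9 was not called with hybridisation scaling (adjusted p = 0.7597), and 3, 4 and 4 subunits were called without miR-376a*G replicates 1, 2 and 3 and 4 without control replicate 2.

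Of 27 genes of nuclear pores and nuclear transport 11 rose and 0 fell, with a median of 0.47 (16 and 1 without both arrays, 3 and 2 with centred arrays, 24 and 0 with hybridisation scaling). The scaffold nucleoporins NUP155, NUP160, NUP93 and NUP188 rose by 1.04, 0.70, 0.63 and 0.67, and NUP155 was at 239, 289 and 256 against 132, 138 and 110.4. Leaving out miR-376a*G replicates 1, 2 or 3 in turn left 6, 4 and 7 calls in this list, and leaving out control replicate 2 or 3 left 7. With centred arrays NUP93 and NUP188 were not called (adjusted p = 0.1200 and 0.1387). Both lamin genes named here were called, in opposite directions. LMNB1, encoding lamin B1, was at 363, 317 and 344 against 110.1, 107 and 92.9 (difference 1.71, SE 0.12, adjusted p = 2.5e-05), whereas LMNA, encoding lamins A and C, was at 829.8, 878 and 956 against 1416, 1316 and 1417 (difference -0.64, SE 0.09, adjusted p = 6.3e-04). All 3 other bright LMNA probe sets were lower, at -0.75 to -0.59. The lamina-associated gene TMPO rose by 1.93 and the linker gene SYNE2 by 1.45. Over the whole list of 13 lamina and envelope genes, 4 rose and 1 fell (median 0.22; 7 and 2 without both arrays, 3 and 1 with centred arrays, 7 and 1 with hybridisation scaling), and the median was -0.01 with arrays centred on their medians.

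Chromatin genes rose in 11 of 21 tested members of the Polycomb, DNA methylation and heterochromatin list, with 0 lower and a median of 0.48 (13 and 2 without both arrays, 6 and 2 with centred arrays, 17 and 0 with hybridisation scaling). EZH2, the Polycomb methyltransferase, was at 666, 696 and 646 against 183, 261 and 268 (difference 1.51, SE 0.21, adjusted p = 7.0e-04). UHRF1, which brings the maintenance DNA methyltransferase to new DNA, was at 503, 526 and 548 against 216, 172 and 187 (difference 1.46), and the remodeller gene HELLS at 421, 442 and 411 against 132, 145 and 152 (difference 1.56). The histone methyltransferase SUV39H1 was at 98.9, 97.7 and 122 against 38.5, 36.0 and 25.8 (difference 1.65). Of 19 tested histone and histone chaperone genes 11 rose and 3 fell (median 0.79; 13 and 5 without both arrays, 8 and 3 with centred arrays, 13 and 2 with hybridisation scaling). The chaperones ASF1B and NASP rose by 1.40 and 0.80 and the variant histone gene H2AX by 1.22, while H2AC6 fell from 196, 208 and 200.3 to 86.3, 65.9 and 78.4 (difference -1.39). The other members that fell were H2BC4 (-0.99) and the chaperone ASF1A (-0.85), which was not called with hybridisation scaling (adjusted p = 0.0813). With centred arrays NASP was not called (adjusted p = 0.0656). Clustered histone genes are near-identical in sequence, and most of their messages lack a poly-A tail while the labelling was primed with oligo(dT), so single members are uncertain. Among 27 splicing factors 7 rose and 3 fell (median 0.16, -0.07 with arrays centred on their medians; 12 and 5 without both arrays, 1 and 6 with centred arrays, 19 and 0 with hybridisation scaling). The repressor PTBP1 was at 996, 1059 and 1065 against 681, 723 and 711 (difference 0.56), and besides SRSF11 the regulators MBNL1 and QKI fell by 0.64 and 0.58. The 5 other bright QKI probe sets ranged from -1.47 to -0.04. PTBP1 was not called with centred arrays (adjusted p = 0.0837), nor MBNL1 and QKI with hybridisation scaling (adjusted p = 0.0523 and 0.1709).

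**Figure D3:**
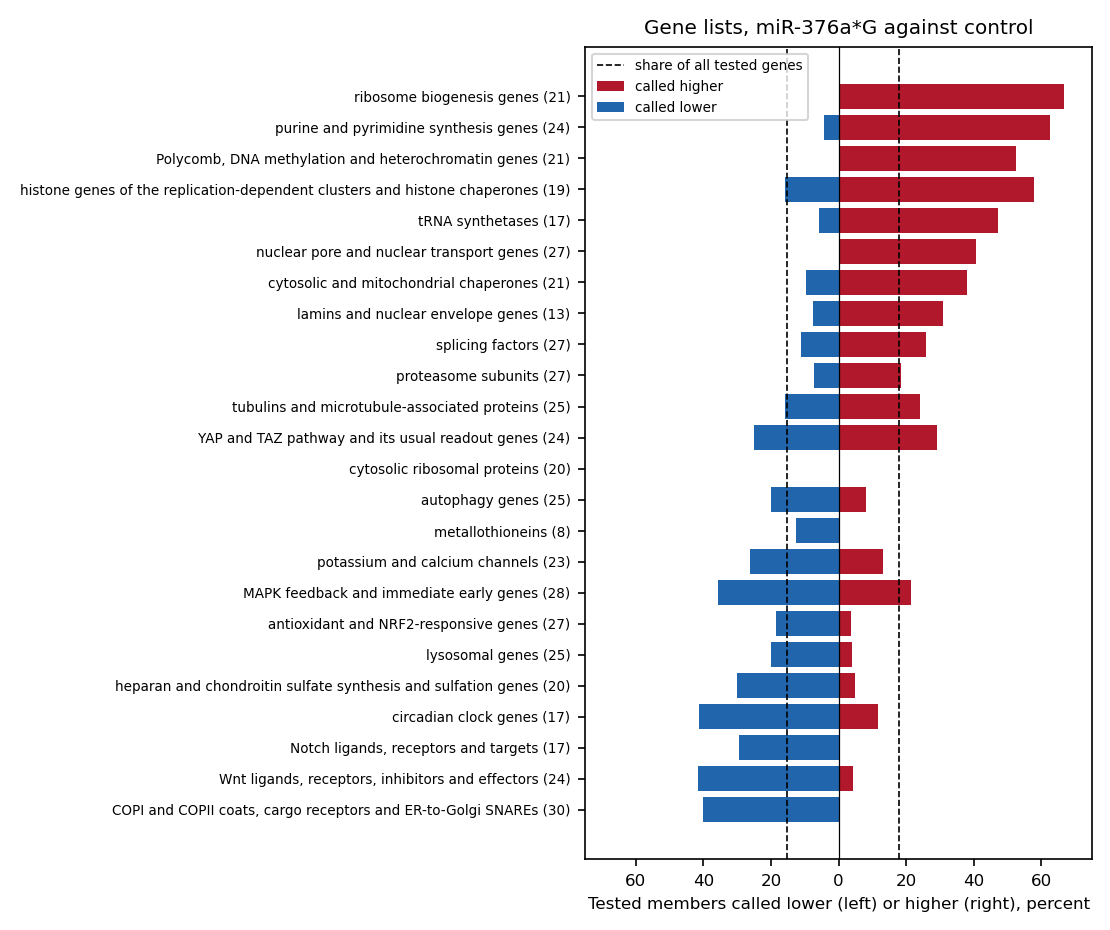
Share of the tested members of each of 24 gene lists that were called lower (blue, to the left) or higher (red, to the right) with miR-376a*G, in percent; the number tested is in parentheses. Dashed lines mark the 15.4% lower and 18.0% higher among all 12587 tested genes. Ribosome biogenesis genes reach farthest to the right, and 0 cytosolic ribosomal protein genes were called in the deposited scaling, against 19 of 20 with hybridisation controls set equal.

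Genes of transport between the ER and the Golgi gave the highest count of calls downward among the 24 pathway lists, but not the highest share. Wnt genes (10 of 24) and clock genes (7 of 17) had slightly larger shares. Of 30 tested coat, cargo receptor and fusion genes 12 fell and 0 rose (14 and 2 without both arrays, 17 and 0 with centred arrays, 6 and 6 with hybridisation scaling). The median of -0.22 became 0.18 with hybridisation controls set equal and 0.09 with poly-A controls set equal. The cargo receptor gene LMAN1, which carries glycoproteins such as coagulation factors, was at 409, 428 and 426 with miR-376a*G and 1756, 1256 and 1434 with control (difference -1.80, SE 0.18, adjusted p = 1.2e-04). SEC23A, of the inner COPII coat that buds vesicles from the ER, was at 356, 355 and 344 against 903, 784 and 831 (difference -1.25, adjusted p = 3.1e-05). The vesicle fusion gene SEC22B was at 416, 365 and 385 against 791, 851 and 915 (difference -1.13) and the COPI subunit gene ARCN1 at 307, 282 and 310.4 against 601, 599 and 577 (difference -0.98). Other bright probe sets of LMAN1, SEC23A and SEC22B, 4 in all, were lower too.

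Glycosaminoglycan chains are built on proteoglycans in the Golgi, and some of the enzymes that start them fell. Of 20 tested synthesis and sulfation genes 6 fell and 1 rose, with a median of -0.49 that was below 0 under all 4 other scalings (13 and 1 without both arrays, 8 and 0 with centred arrays, 5 and 3 with hybridisation scaling). XYLT1, which adds the first sugar to the core protein, was at 149, 125 and 135 against 724, 531 and 553 (difference -2.12, SE 0.20, adjusted p = 9.5e-05). CSGALNACT1, given above, commits a chain to chondroitin sulfate. The chondroitin sulfotransferase CHST11 was at 124, 105 and 114 against 189.9, 209.7 and 230.2 (difference -0.87), and the glycosyltransferase EXTL2 at 473, 477 and 439 against 855, 778 and 829 (difference -0.82). The member that rose was EXT2 (0.34), a polymerase subunit of heparan sulfate, which was not called without control replicate 1 (adjusted p = 0.0588) or with centred arrays (adjusted p = 0.5789).

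Of 25 tested lysosomal genes 5 fell and 1 rose (median -0.08; 7 and 4 without both arrays, 8 and 1 with centred arrays, 1 and 8 with hybridisation scaling). Acid ceramidase (ASAH1) was at 377, 345 and 345 against 1101, 1505 and 1836 (difference -2.02, SE 0.23, adjusted p = 2.6e-04), although its 3 other bright probe sets ranged from -2.39 to -0.35. LAMP2, a membrane protein of lysosomes, differed by -0.58, with other probe sets at -0.53 to 0.46 and no call with hybridisation scaling (adjusted p = 0.2288), and cathepsin B (CTSB) and prosaposin (PSAP) by -0.35 and -0.33 (0.05 and 0.07, not called, with hybridisation scaling). The member that rose was cathepsin H (CTSH, 1.05). Of 25 tested autophagy genes 5 fell and 2 rose (median -0.08; 10 and 7 without both arrays, 7 and 0 with centred arrays, 4 and 10 with hybridisation scaling). WIPI1, which marks forming autophagosomes, was at 268, 248 and 267 against 598, 582 and 632 (difference -1.21), GABARAPL1, a ubiquitin-like protein of their membrane, differed by -0.75 and TP53INP2 by -1.19. ATG3, the enzyme that attaches such proteins to lipid, was higher, at 1695, 1719 and 1713 against 909, 1108 and 1105 (difference 0.72), and the other riser was ATG7 (0.66), which was not called without control replicate 1 (adjusted p = 0.0750). With centred arrays neither ATG3 nor ATG7 was called (adjusted p = 0.0779 and 0.2626). Both medians were above 0 when arrays were scaled to the spiked controls. In both lists the share called lower was not far from the 15.4% of all tested genes. The share called higher was below the 18.0% of all tested genes.

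Wnt signalling genes fell in 10 of 24 tested members and rose in 1, with a median of -0.30 that was 0.09 after scaling to the hybridisation controls (12 and 4 without both arrays, 10 and 1 with centred arrays, 5 and 3 with hybridisation scaling). The riser was DKK1, a secreted Wnt inhibitor, at 188, 163 and 168 with miR-376a*G and 40.7, 41.5 and 40.6 with control (difference 2.05, SE 0.13, adjusted p = 1.4e-05). The receptor genes FZD6 and FZD1 were at 171, 172 and 147 and 41.2, 43.5 and 47.9 against 378, 405 and 379.9 and 148, 142 and 111, differences of -1.24 and -1.56. The ligand gene WNT7B was at 64.3, 74.5 and 72.1 against 257, 174 and 161 (difference -1.45). Of 17 tested Notch genes 5 fell and 0 rose (median -0.38, 0.02 after scaling to the hybridisation controls; 6 and 0 without both arrays, 7 and 0 with centred arrays, 4 and 0 with hybridisation scaling). The ligand gene JAG1 was at 48.2, 46.3 and 63.4 against 247, 126 and 103 (difference -1.49, -1.12 without control replicate 1), the receptor gene NOTCH2 at 562, 561 and 609 against 777, 766 and 817 (difference -0.45), and the coactivator gene MAML2 at 66.0, 70.2 and 78.9 against 160.2, 166 and 158 (difference -1.16). With hybridisation scaling NOTCH2 was at -0.05 and not called (adjusted p = 0.7130), as with poly-A scaling (-0.14, adjusted p = 0.3248). RBPJ, the DNA-binding partner of Notch, overlapped between groups (difference -0.38, adjusted p = 0.2318).

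Hippo pathway genes split in both directions, with 7 of 24 higher and 6 lower (median -0.14, 0.05 without control replicate 1; 9 and 10 without both arrays, 5 and 8 with centred arrays, 8 and 3 with hybridisation scaling). CCN1, a secreted protein often used as a readout of YAP, was at 528, 464 and 547 against 175, 230.1 and 269 (difference 1.21, adjusted p = 8.8e-04), and TEAD4, a DNA-binding partner of YAP, at 181, 183 and 188 against 78.7, 61.2 and 59.7 (difference 1.47). The kinase cofactors SAV1 and MOB1A, which restrain YAP, fell from 169, 211 and 212 and 565, 599.6 and 511 to 90.1, 83.2 and 91.1 and 346, 367 and 311, differences of -1.15 and -0.71. With hybridisation scaling MOB1A was not called (-0.31, adjusted p = 0.0729). CCN2, another common readout, was not called (-0.05, and 0.13 without control replicate 1). Of 28 immediate early and MAPK feedback genes 6 rose and 10 fell (median -0.14; 9 and 11 without both arrays, 4 and 11 with centred arrays, 10 and 2 with hybridisation scaling). FOSL2 and JUND, subunits of AP-1, were lower by 1.16 and 0.62 and the ETS factor ETV1 by 0.66. The 3 other bright FOSL2 probe sets ranged from -1.87 to -0.28. With hybridisation scaling JUND and ETV1 were at -0.22 and -0.26 and not called (adjusted p = 0.1983 and 0.1052). IER2 was higher, at 1454, 1593 and 1471 against 979, 816 and 721 (difference 0.85). Both list medians were above 0 after scaling to the spiked controls.

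Of 17 tested clock genes 7 fell and 2 rose (7 and 4 without both arrays, 7 and 1 with centred arrays, 4 and 6 with hybridisation scaling), although the median was -0.02. BHLHE40, a repressor that also responds to low oxygen, was at 379, 375 and 381 against 1080.5, 1058 and 1164 (difference -1.54, SE 0.08, adjusted p = 1.0e-05). BMAL1, the core activator, was at 108, 95.8 and 111 against 349.9, 261 and 282 (difference -1.49), and its nuclear receptor activator RORA at 79.4, 78.7 and 62.7 against 451, 352 and 351 (difference -2.37). The repressor NFIL3 was at 210.2, 224 and 208 against 866, 615 and 630.3 (difference -1.69). The risers were BMAL2 (0.56) and NR1D2 (1.30), a repressor of BMAL1. BMAL2 was not called with centred arrays (adjusted p = 0.1096), and 5 clock genes were called without control replicate 2, as many as without miR-376a*G replicate 2 or 3.

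Antioxidant genes gave 5 lower and 1 higher of 27 (median -0.02; 9 and 3 without both arrays, 6 and 1 with centred arrays, 2 and 14 with hybridisation scaling). Catalase (CAT) was at 355, 302 and 308 against 739.7, 919.6 and 887 (difference -1.40, adjusted p = 4.3e-05), heme oxygenase 1 (HMOX1) at 483, 478 and 469.9 against 988, 936 and 984 (difference -1.02), and GCLM, which helps to make glutathione, differed by -0.85 (-0.45, not called, with hybridisation scaling). Glutathione reductase (GSR) was the member that rose, at 515, 508 and 562 against 296, 204 and 223 (difference 1.15). The share of antioxidant genes called lower was near the 15.4% of all tested genes. Among 8 metallothioneins, which share much sequence, MT3 alone was called (-1.27), and MT1X was at 1957, 2307 and 2016 against 2080.4, 2320.5 and 2374 (difference -0.11, adjusted p = 0.4045). MT1E and MT1M, also not called, differed by -0.04 and -0.50. Without both arrays that stood apart 2 were called, both lower, and with hybridisation scaling 5 were called higher and 1 lower.

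Calcium release and potassium channel genes included 6 of 23 lower and 3 higher (8 and 5 without both arrays, 9 and 2 with centred arrays, 4 and 6 with hybridisation scaling). The IP3 receptor genes ITPR1 and ITPR2, which release calcium from the ER, were at 199.6, 202 and 187 and 49.5, 42.4 and 39.9 against 634, 561 and 531 and 114, 97.4 and 95.7, differences of -1.54 and -1.20. The potassium channel subunit gene KCNS3 differed by -1.06, and the risers were TRPV2, given above, the plasma membrane calcium channel gene ORAI1 (0.59) and CACNA2D1 (2.31), a calcium channel subunit. ORAI1 was not called with centred arrays (adjusted p = 0.0955). Of 25 tubulins and microtubule proteins 6 rose and 4 fell (8 and 6 without both arrays, 1 and 5 with centred arrays, 15 and 1 with hybridisation scaling). TUBG1, of the nucleating ring, and CKAP5, a microtubule polymerase, rose by 0.79 and 0.62, while the tubulin genes TUBA4A and TUBA1A fell by 0.88 and 0.44. CKAP5 was not called with centred arrays (adjusted p = 0.1993) or TUBA1A with hybridisation scaling (-0.04, adjusted p = 0.6649), and 6 and 5 members were called without miR-376a*G replicates 1 and 2. The shares of this list were not far from the 18.0% higher and 15.4% lower of all tested genes. Tubulin genes are close in sequence, so their probe sets can share signal.

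**Figure D4:**
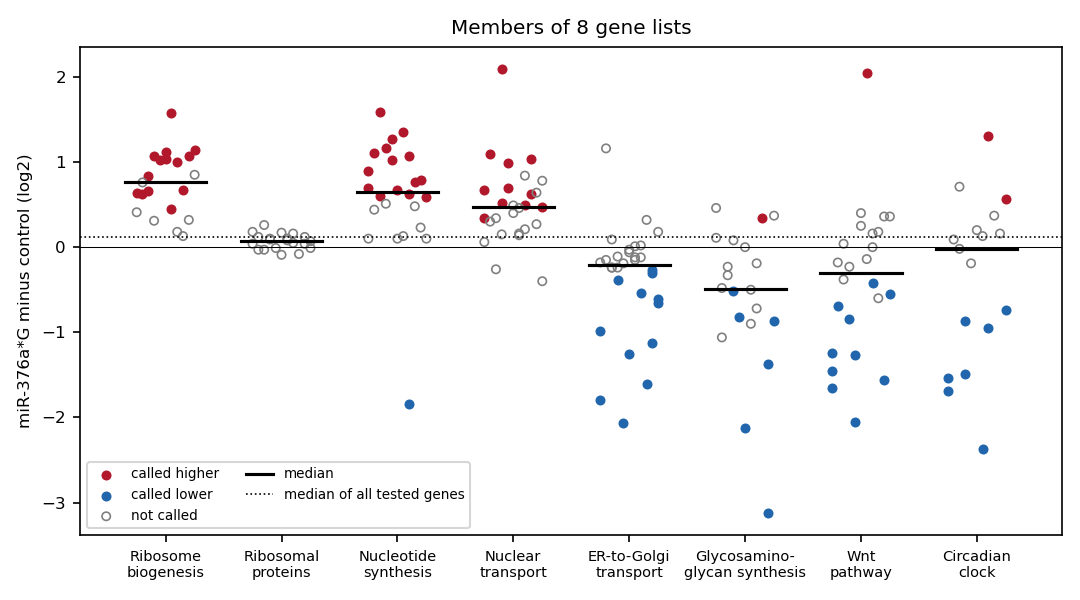
Log2 difference between miR-376a*G and control for every tested member of 8 lists; filled red and blue circles were called higher and lower, open circles were not called, bars mark list medians, and the dotted line the median of all tested genes (0.12). Ribosomal protein genes lie between -0.09 and 0.26, while members of the other lists spread wider.

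Of 6 tested neuron markers 3 were called lower, beside 15.4% of all tested genes. These 3, GAP43, MAP2 and SYT1, were bright only through the control group. Their mean signal there was 266, 400.1 and 135, against 33.8, 78.5 and 61.2 with miR-376a*G. Being bright was thus tied to their direction and gives no support for it. GAP43, a growth cone protein, was at 29.7, 36.5 and 35.3 with miR-376a*G and 339, 261 and 198 with control (difference -2.91, SE 0.29, adjusted p = 1.2e-04). The dendritic protein gene MAP2 was at 83.1, 79.4 and 72.9 against 210.1, 473 and 517 (difference -2.23), with control replicate 1 the lowest control, and the vesicle calcium sensor gene SYT1 at 69.5, 54.6 and 59.5 against 162, 127 and 116 (difference -1.12). SNAP25, a synaptic fusion protein, was at 197, 192 and 179 against 1498, 239.6 and 214. Its difference of -1.17 (adjusted p = 0.3317) came largely from control replicate 1 and was -0.26 without it. Summed over the 10 neuron markers with a probe set, signal was 518 to 547 on miR-376a*G arrays and 1237 and 1178 on control replicates 2 and 3, against 2396 on control replicate 1, where SNAP25 was high, while NEFL, RBFOX3, STMN2 and NEFM were at 19.2 or below on each of the 6 arrays. Of 6 tested neuron markers, 0 rose (4 fell and 1 rose without both arrays that stood apart). GAD1 was at 102, 101 and 86.5 with miR-376a*G and 95.5, 71.4 and 64.3 with control, above control replicates 2 and 3. The dim SLC17A7 was at 31.7, 31.7 and 33.9 against 39.6, 30.5 and 30.1. Astrocyte markers summed to 1187 to 1295 and 1676 to 1956, and of 4 tested 2 were called lower and 1 higher. Dim members went upward, with ALDH1L1 at 41.2, 42.9 and 41.4 against 27.4, 24.0 and 25.9. FABP7 was at 46.7, 44.6 and 51.2 against 28.3, 42.9 and 39.1. The glutamate transporter gene SLC1A3 was at 138, 167 and 143 against 347, 236 and 274 (difference -0.92) and the gap junction gene GJA1 at 963, 1009.5 and 931 against 1528, 1356 and 1401 (difference -0.56, but -0.16 and not called with hybridisation scaling). The myelin enzyme gene CNP overlapped between groups (difference 0.21, adjusted p = 0.2374). Of 3 tested oligodendrocyte markers 1 was called higher and 0 lower, and 0 were called with centred arrays. The dim SOX10 was at 30.5, 29.3 and 25.3 against 18.9, 18.1 and 12.3. Summed signal over oligodendrocyte markers was 415 to 476 and 339 to 421, over endothelial markers 178 to 257 against 94 and 92 on control replicates 2 and 3 and 220 on control replicate 1, over epithelial markers 87 to 106 and 57 to 74, and over leukocyte markers 68 to 85 and 36 to 63. Of 2 tested endothelial markers KDR was called higher (1.23, adjusted p = 0.0174), and both were called higher without control replicate 1. The part of these markers in the results was not tested.

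Of the 10 genes usual in mesenchymal glioma lines, 2 fell and 0 rose, also without both arrays that stood apart (median -0.16, above 0 when scaled to the spiked controls). CHI3L1, a secreted chitinase-like glycoprotein and common glioblastoma marker, was at 112, 121 and 115 with miR-376a*G and 1249.6, 816 and 861 with control. The groups were far apart, with a difference of -3.03 (SE 0.19, adjusted p = 1.3e-05), or -2.84 without control replicate 1, and a second bright probe set differed by -3.37. ANXA1, a phospholipid-binding protein, was at 1919, 2143 and 2061 against 2326, 2296 and 2571 (difference -0.23, adjusted p = 0.0273), and its difference was 0.17 after scaling to the hybridisation controls. ANXA2 and the hyaluronan receptor gene CD44 were not called, at -0.18 and -0.16; the 8 other bright CD44 probe sets differed by 0.07 to 0.54.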

How the data were processed

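RNA from 9 samples of U87 cells was hybridised to 1-colour Affymetrix arrays of 54675 probe sets. The deposited intensity values are linear; GCOS version 1.4.0.036 is named per the submitters' processing notes, and for the summary algorithm the entry is: not given in the sources used here. Each array had a trimmed mean (2% off each end) of 100.0. A probe set was used where the platform annotation gave it 1 gene (41097 probe sets; 1801 had several), which left 19775 genes, 19735 of them matched to RefSeq by Entrez identifier. Cross-hybridisation and a scaling that assumes equal total signal can affect each value.

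Signals were tested as log2(signal + 1) with limma 3.58.1 in R 4.3.3 (lmFit, and eBayes with an intensity trend) on all 9 arrays in 3 groups, with 1 probe set per gene, that with the highest mean. A gene was tested when above the array median on at least 3 arrays, and called at a Benjamini-Hochberg adjusted p under 0.05. No background was subtracted again. The fit was tested on simulated data with independent noise for each gene and array. The simulated data held no array that stood apart, so they cannot give error rates for that case.

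Genes were named by rule, beginning with the 15 largest bright called changes per direction without overlap. The 8 brightest per direction with a difference of 1 or more followed. Up to 4 bright members per list with the smallest p were added. So were 6 per direction whose difference shrank most and 6 newly called without control replicate 1, and all tested reported targets. Other list members (mostly those called in the less common direction of their list, CCN2 and KDR) were chosen after their values were seen. The comparison, lists and members were chosen with earlier results of these data known. Deviations of same-numbered miR-376a*G and control arrays from their group means had correlations of 0.00896, -0.0069 and -0.167. Since control replicate 1 stood apart from its group, these values cannot decide whether the numbers mark a shared batch. Alternatives were other pseudocounts, filters, scalings, array weights, a replicate block and leaving out arrays.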

Additional observations from a re-analysis of the deposited data

How the results depend on the processing

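Against 4205 genes called, 7520 probe sets were called when every single-gene probe set was tested, 6510 genes after scaling to the hybridisation controls, 7865 with array weights and 7066 without both arrays that stood apart. For bright genes (3334 called) these counts were 5037 for probe sets, 5542 with array weights and 5320 without both arrays. Other settings gave 2936 to 5982 calls, and leaving out each replicate gave 2994 to 4415 (2466 to 3394 bright). With a replicate block 2936 genes were called (2411 bright), and the labels do not say whether the replicate numbers mark a shared day or batch. Of 191 genes named in the text, 11 changed sign and a further 16 lost their call with hybridisation controls set equal, 6 and 13 with poly-A controls set equal, and 5 and 24 with centred arrays, while 0 and 19 did so with the replicate block. Under the first scaling the differences were 0.17 for ANXA1, 0.22 for ANXA2, 0.35 for CCN2, 0.24 for CD44, 0.05 for CTSB, 0.06 for GARS1, 0.29 for MT1X, 0.36 for MT1E, 0.07 for PSAP, 0.02 for PSMC4 and 0.02 for RBPJ. Under the second they were 0.07 for ANXA1, 0.12 for ANXA2, 0.25 for CCN2, 0.14 for CD44, 0.19 for MT1X and 0.26 for MT1E. Centring arrays on their medians gave -0.02 for CNP, -0.13 for PRPS1, -0.06 for RPL8, -0.05 for RPL11 and -0.08 for RPL22. Without control replicate 1, and without both arrays, CCN2 (-0.18 to 0.13 with each replicate left out in turn) was at 0.13 and PRPS1 at -0.13; array weights gave 0.13 and -0.12. MT1E ranged from -0.12 to 0.01 with each replicate left out in turn. The causes were not tested. Testing every probe set was not run for list members or single genes. With 3 arrays per group, 2 of the 9 at odds with their labels' groups, precision is limited by the number of arrays.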

Other observations

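The arrays from cells given the unedited form share these controls, so their levels are given only as values, in the order of replicates 1 to 3. CSF3 was at 52.6, 167 and 158, E2F2 at 35.1, 45.3 and 39.3, CDC20 at 156, 109 and 109.6 and CXCL1 at 70.5, 58.0 and 61.2 on the miR-376a*A arrays. NRN1 was at 1200.4, 1335 and 1425, ACVR1 at 528, 547 and 615, ITGB3 at 675, 705 and 861 and PPL at 128, 149 and 184. For TIMP3 the values were 273, 1520.4 and 1783 and for PTN 128, 1452 and 1087, with the array labelled miR-376a*A replicate 1 apart from the other two in both genes.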
